A study of Mus musculus with 2 samples.

Results

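The galectin family was followed in mouse embryonic fibroblasts (MEFs, connective tissue cells grown from embryos) as 9 genes: Lgals1, Lgals2, Lgals3, Lgals4, Lgals7, Lgals8, Lgals9, Lgals12 and Lgals3bp. All 9 were found by gene name among the 27745 gene names of the array, on 11 of its 41174 probes. The family was selected on ratios of these same arrays already seen, so the values of its members describe the pair of RNAs, and no test of them is offered as a result. The study compared RNA of MEFs lacking Lats2, a kinase of the Hippo pathway (genotype spelled LAT2-/- or LATS2 KO in the labels), with RNA of LAT2+/+ (WT) MEFs. Both came from C57BL/6J embryos, and neither received a treatment. Both RNAs were hybridised together on each of 2 Agilent whole mouse genome arrays. On array 1 the KO RNA carried the red dye Cy5 and the WT RNA the green dye Cy3, and on array 2 the dyes were exchanged. The labels name no embryo, culture or passage number for either RNA. The arrays were therefore taken as a technical dye swap of 1 replicate, and the spread between them measures hybridisation and dye error only.

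Galectins are small proteins that bind beta-galactosides through a conserved carbohydrate recognition domain. They are made in the cytosol, leave the cell without a signal peptide, and cross-link glycoproteins at the cell surface and in the matrix, where N-acetyllactosamine on branched N-glycans is a preferred ligand. Prototype galectins (galectin-1, galectin-2 and galectin-7) carry a lone recognition domain and dimerise, the chimeric galectin-3 joins it to a self-associating N-terminal tail, and tandem-repeat galectins (galectin-4, galectin-8, galectin-9 and galectin-12) join a pair of different domains by a linker. Lgals3bp encodes a secreted, heavily glycosylated scavenger receptor protein that galectins bind, and is not itself a galectin. Fibroblasts are known as a rich source of galectin-1 and galectin-3.

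Of the members, Lgals3 and Lgals9 differed at least 2-fold between the RNAs on each array, in opposite directions, so the bases upstream of their start sites are shown here. Both sequences are RefSeq's on GRCm38.p6, 5′ to 3′ on the gene's strand, and end at the base before the start site. Capitals mark a match to GAAANNGAAA, a spaced repeat of the type found in interferon response elements. The match lies on the strand opposite the gene, so its reverse complement is what reads here.

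Lgals9, chr11:78984925-78985174, minus strand: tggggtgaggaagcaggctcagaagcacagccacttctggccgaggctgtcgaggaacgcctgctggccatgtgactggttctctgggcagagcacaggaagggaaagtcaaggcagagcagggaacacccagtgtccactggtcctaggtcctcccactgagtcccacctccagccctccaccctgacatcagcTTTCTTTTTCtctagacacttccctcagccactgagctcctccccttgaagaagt

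Lgals3, chr14:47373610-47373859, plus strand: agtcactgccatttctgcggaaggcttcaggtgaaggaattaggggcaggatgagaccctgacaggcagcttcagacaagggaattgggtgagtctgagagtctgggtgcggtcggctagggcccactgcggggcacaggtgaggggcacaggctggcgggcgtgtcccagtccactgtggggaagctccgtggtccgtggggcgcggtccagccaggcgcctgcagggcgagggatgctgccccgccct

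The Lgals9 sequence held the match GAAAAAGAAA at positions -55 to -46 from the start site, and the next 50 bases held GAAACAGAAA at 16 to 25, on the same strand. The motif was searched on both strands, without overlap, over 300 bases of each promoter (250 before and 50 after the start site). It was present in 1131 of 32851 promoters in the table (3.44%) and at least 2 times in 74 (0.225%). Among the 7 members with an entry (Lgals2, Lgals3, Lgals4, Lgals7, Lgals8, Lgals9 and Lgals3bp), Lgals9 was the 1 promoter that held it. Lgals1 and Lgals12 had no entry. The Lgals3 sequence was the richest in CpG dinucleotides of the 7, with 13 in 250 bases and 66.0% G or C. The Lgals9 sequence had 3 CpG and 58.4% G or C, and the median over all promoters was 6 CpG. These are descriptions of sequence, and binding of any factor was not measured.

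Values are given as log2 of RNA labelled KO over RNA labelled WT, with levels as normalised log2 intensity in arbitrary units. A gene was called when its ratio reached 1 or -1 on array 1 and on array 2 alike and the scanner software's flag put the probe well above background on both arrays in the brighter RNA. The median signal per array was 96.8 to 98.5 units in Cy5 and 58.2 to 60.1 in Cy3, against background medians of 30 to 36, no spot was saturated, and the number of arrays limits the precision. Between the arrays the ratio of a probe had an SD of 0.133 on the log2 scale (40875 probes), and Pearson's r of the ratios was 0.937 over 24186 probes well above background. The targeted gene went in part against its label: the 4 probes for Lats2 had mean log2 ratios of 0.56, 0.56, 0.63 and -0.35, so 3 of them were brighter in the RNA labelled KO. Those 3 lie close together, at chr14:56644080-56645305 on mm8, and 2 of them overlap, so they are not separate readings of the whole gene. The probe that was lower lies apart from them, at 56676512 to 56676571. Where these probes lie relative to the deleted part of Lats2 was not tested. Directions below therefore rest on the labels, and each RNA is named by its label.

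Of the 9 members, 8 had a value on both arrays, and 6 of these stood well above background in 1 RNA or both. Among those 6, 1 (Lgals9) was called higher and 1 (Lgals3) lower in the RNA labelled KO. Of the 15877 genes well above background, 2.95% were called higher and 2.61% lower. The rule used this contrast, so nothing is read from the comparison of these shares. The members pointed both ways, 3 with a positive and 3 with a negative mean log2 ratio, and their median was 0.02, against -0.0037 over all genes well above background. Bulk RNA does not tell fewer cells that carry a transcript from less transcript per cell.

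**Figure D1:**
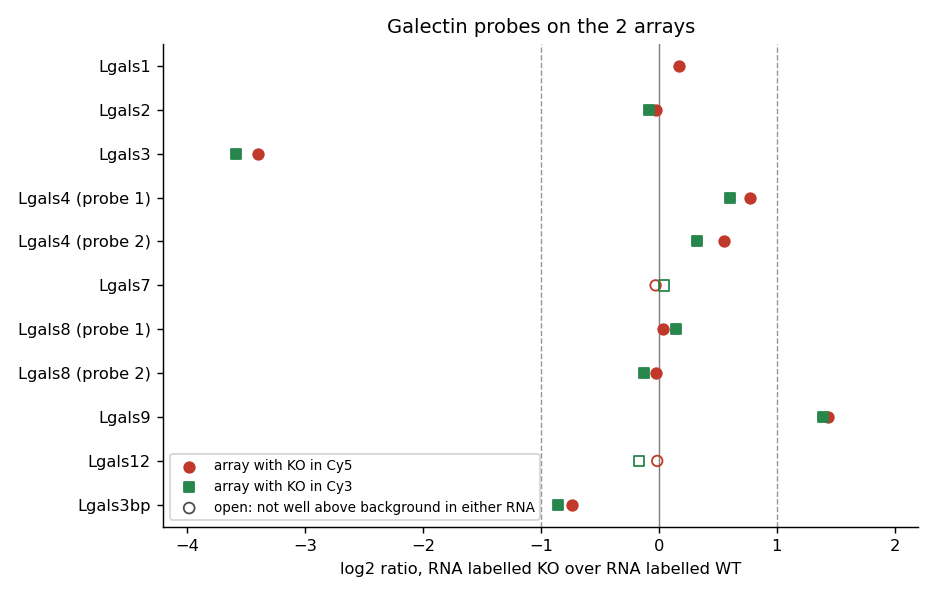
Log2 ratio, KO over WT as labelled (horizontal axis), for each of the 11 galectin probes (rows), 1 point per array, with dashed lines at 2-fold in either direction. Lgals3 lies at -3.40 and -3.59 and Lgals9 at 1.43 and 1.39, both outside the dashed lines on each array, while Lgals1 has a value on 1 array only.

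Lgals3 encodes galectin-3, the chimeric member, found in the cytosol, the nucleus, the cell surface and on damaged lysosomes. Its probe is placed by the array files at chr14:46306600-46307416 on the mm8 build. These coordinates span 817 bases, where 85.4% of the probes span 60, so the oligonucleotide matches the genome in separate blocks, as one across an exon junction does. In the RNA labelled WT its level was 12.70 on array 1 and 12.81 on array 2, and in the RNA labelled KO it was 9.30 and 9.23. Both readings labelled KO thus lay far below both readings labelled WT. An order without overlap alone sets no member apart. The brighter Lgals8 probe, where no difference was detectable, also had one, and its share over all genes was not computed. The log2 ratio was -3.40 with the KO RNA in Cy5 and -3.59 with it in Cy3, a mean of -3.49 with an SD between arrays of 0.134, where probes of like brightness had an SD of 0.141. On the linear scale the RNA labelled KO held 8.89% of the signal in the RNA labelled WT, or 11.2-fold less. Of 15877 genes, 11 had a lower ratio (0.0693%).

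The size of the Lgals3 difference can be seen in the scanner signal without any correction between dyes. In Cy5, the signal was 971 units in the RNA labelled KO on array 1 and 11428 in the RNA labelled WT on array 2. In Cy3, it was 357 units in the RNA labelled KO on array 2 and 4102 in the RNA labelled WT on array 1. Local background was 25 to 36.5 units at these spots, so all 4 readings stood well clear of it. After background subtraction and centring on the median of all probes well above background, the same-dye log2 ratios were -3.56 in Cy5 and -3.63 in Cy3, a comparison chosen after the data had been seen.

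**Figure D2:**
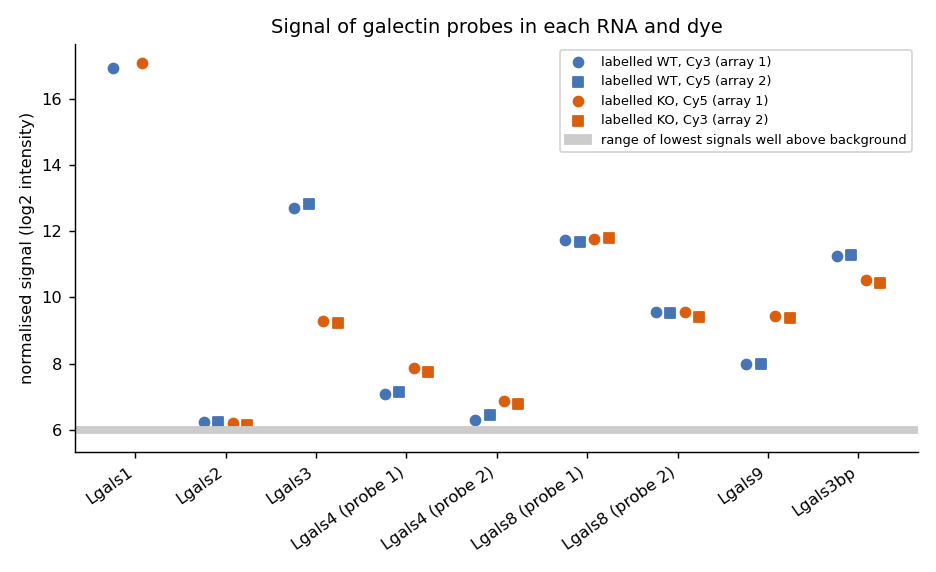
Normalised log2 intensity (vertical axis, arbitrary units) of the galectin probes that stood well above background in 1 RNA or both, 1 point per RNA and array, blue for the RNA labelled WT and orange for the RNA labelled KO, with the lowest signals well above background as a grey band. The points of the 2 RNAs separate at Lgals3 (12.70 and 12.81 against 9.30 and 9.23), Lgals9, Lgals3bp and Lgals4 and lie together at Lgals8, and heights are not comparable between probes.

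Lgals9 encodes galectin-9, a tandem-repeat galectin known as an interferon-inducible ligand of the receptor Tim-3. Its probe lies at chr11:78779657-78779716 on mm8, on the minus strand. In the RNA labelled WT its level was 8.00 on array 1 and 7.98 on array 2, and in the RNA labelled KO it was 9.43 and 9.37. Both readings labelled KO were above both labelled WT, as at the brighter Lgals8 probe. The log2 ratio was 1.43 and 1.39, a mean of 1.41 with an SD between arrays of 0.0289, which is a 2.66-fold higher signal in the RNA labelled KO, and like-bright probes had an SD of 0.144. Of the 15877 genes, 1.73% had a higher ratio. In the same dye across arrays, the log2 ratio was 1.63 in Cy5 and 1.70 in Cy3. Median centring of each array in place of the intensity-dependent loess fit gave 2.06 on array 1 and 0.75 on array 2, so Lgals9 was not called in that setting, although the mean (1.40) stayed close to 1.41.

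The other tandem-repeat galectins differed less. Lgals4, a galectin best known from the gut epithelium, had 2 probes on chromosome 7. At the brighter, chr7:28550399-28550458 on mm8, the level was 7.08 and 7.14 in the RNA labelled WT and 7.86 and 7.74 in the RNA labelled KO. Both KO readings were the higher ones, with log2 ratios of 0.78 and 0.60 and a mean of 0.69 (1.61-fold, SD between arrays 0.121), short of the 2-fold threshold. The other probe, at 28549707 to 28549958, had 0.55 and 0.32, a mean of 0.44 (1.36-fold). Both probes were dim, and their ratios moved with the background step: with an offset of 10 in place of 50 the means were 0.94 and 0.81, and in the authors' deposited log2 table they were 1.08 and 1.19. In that table the brighter probe reached 1.18 on array 1 and 0.985 on array 2, just inside and just outside the threshold, and the other probe had 1.11 and 1.28, past it on both arrays.

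Lgals8, whose product binds host glycans on damaged vesicles and several integrins, also had 2 probes, both on chromosome 13. The brighter, chr13:12494001-12494060, read 11.73 and 11.67 in the RNA labelled WT and 11.76 and 11.81 in the RNA labelled KO. Both KO readings were thus the higher ones here too, by little. Its log2 ratios of 0.03 and 0.14 averaged 0.09 with an SD between arrays of 0.0766, within the SD of 0.138 of like-bright probes. The other probe, at 12501565 to 12501624, had -0.03 and -0.13, a mean of -0.08. The 2 probes had means of opposite sign, each smaller than the SD of a probe of like brightness (0.138 and 0.147), so no difference was detectable for Lgals8 with these arrays. Lgals12, known as the galectin of adipocytes, was not well above background in either RNA on either array at its probe (chr19:7663978-7664037), and no fold is given for it.

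Among the prototype galectins, Lgals1 gave a bright spot and an unsettled ratio. Its probe at chr15:78757391-78757450 gave 261685 units in Cy5 and 65052 in Cy3 on array 1, and 212601 in Cy5 and 51676 in Cy3 on array 2. The Cy5 channel was the brighter one on both arrays, whichever RNA it held. The log2 ratio was 0.17 on array 1, and the spot on array 2 was marked non-uniform by the scanner software and left out. With marked spots kept, array 2 read -0.53, array 1 then 0.11, and the mean was -0.21. In the same dye, the log2 ratio was 0.34 in Cy5 and -0.34 in Cy3. The arrays thus disagreed in direction, and no difference in Lgals1, the gene of galectin-1, can be stated from them. Median centring, which leaves the dye's dependence on brightness in place, gave 1.52 for array 1.

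Lgals2 and Lgals7 lay at or near background. The probe for Lgals2 (chr15:78678140-78678199, minus strand), 79.2 kb from that of Lgals1, was well above background on both arrays in the RNA labelled WT and on 1 array in the RNA labelled KO. Its log2 ratios were -0.02 and -0.08, a mean of -0.05, and the deposited table gave a mean of -0.55 for it. Lgals7, the galectin of stratified epithelia, had its probe at chr7:28574366-28574425, 23.9 kb from the nearer Lgals4 probe. It was not well above background in either RNA on either array, while Lgals4 was above background in both. No level or fold is given for Lgals7.

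Lgals3bp, the glycoprotein ligand, was lower in the RNA labelled KO without reaching the threshold. At chr11:118208846-118208905 on mm8 its level was 11.26 and 11.29 in the RNA labelled WT and 10.52 and 10.43 in the RNA labelled KO. The log2 ratios were -0.74 and -0.86, a mean of -0.80 with an SD between arrays of 0.0847, against 0.141 for like-bright probes. The RNA labelled KO held 57.5% of the signal in the RNA labelled WT. Of the 15877 genes, 5.10% had a lower ratio. Same-dye log2 ratios were -0.75 and -0.84, so this difference was of the same size without the correction between dyes.

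**Figure D3:**
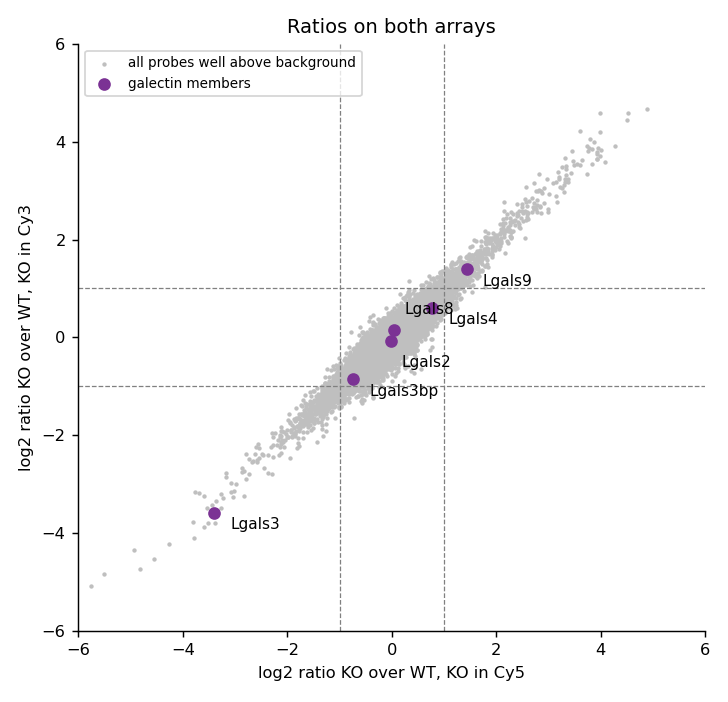
Log2 ratio on array 1 (horizontal axis, KO in Cy5) against array 2 (vertical axis, KO in Cy3), for all probes well above background in grey and for the 6 galectin members in purple, with dashed lines at 2-fold. Lgals3 is near the lower end of the cloud and Lgals9 above both upper lines, and the other 4 members fall within the lines on both arrays.

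Genes with a galectin fold outside the family list were Lgalsl, Grifin and Lgals6, all 3 on the array. Lgalsl, listed on the array as 1110067D22Rik, had log2 ratios of -0.46 and -0.37 (mean -0.42). Grifin, a lens galectin, was not well above background. Lgals6, a near copy of Lgals4, was well above background on both arrays in the RNA labelled KO and on neither in the RNA labelled WT. Its ratio was at least 1.19-fold, and the deposited log2 table, which lacks the offset, gave a mean of 1.41. Lgals6 and Lgals4 are so alike that their probes may read each other's RNA, and the accession of Lgals6 had no match in the C57BL/6J reference table, so its value is uncertain. The same may touch the Lgals4 values, and this was not tested.

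**Figure D4:**
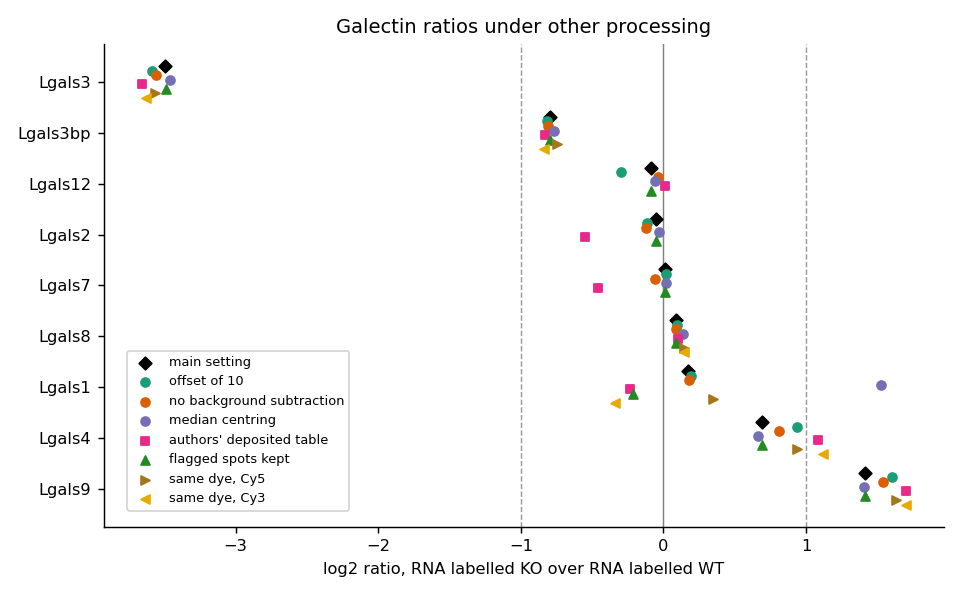
Log2 ratio of each member (horizontal axis) under the main setting (black diamonds) and other processing (coloured symbols), with dashed lines at 2-fold; Lgals1 is from array 1 except in the deposited table, with flagged spots kept and in the same-dye comparisons. Lgals3 stays between -3.66 and -3.46 and Lgals9 between 1.40 and 1.70, while Lgals1 spreads from -0.34 to 1.52. With median centring the single arrays, not drawn, lie apart, at -2.54 and -4.39 for Lgals3.

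The enzymes that build galectin ligands varied without a called gene in the main setting, and Gcnt2, named after its value was seen, was called higher in the deposited table (1.07 and 1.24, against a mean of 0.46 here). They add the branches, the galactose and the sialic acid of N-glycans. Of 24 listed, 19 were well above background with a value on both arrays. Over all genes above background 2.95% were called higher and 2.61% lower, and of these 19 genes 0 were called in either direction. Their median log2 ratio was -0.07. The ratios ran from -0.95 to 0.65. B3gnt2, which extends poly-N-acetyllactosamine, was at -0.95 (-0.81 and -1.09). Mgat3, which adds the bisecting residue, was at -0.86 with a second probe at -0.13. St6gal1, whose sialic acid cap hinders binding of several galectins, was at 0.65 with a second probe at 0.01. Mgat5, the branching enzyme most tied to galectin binding, was named after its value was seen, and its probes ran from -0.49 to 0.03.

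Surface and matrix proteins that galectins bind had a median of 0.05 over the 25 of 28 well above background. Of all genes above background, 2.95% were called higher and 2.61% lower. Near those shares, none of the 25 was called higher and 1 was called lower. That gene was Itgb3, the integrin beta-3 subunit, at -1.79 and -1.81 (mean -1.80), while its other probe was at -0.15. The largest ratios that were not called were those of Havcr2, encoding Tim-3, at 0.94 with a second probe at -0.04, and Cd47, at -0.93, whose 4 probes were all lower and ran from -0.93 to -0.55. Mertk, a receptor of phagocytes to which galectin-3 binds, was at 0.90 and in the deposited table at 2.56. Both Havcr2 and Mertk were called higher with an offset of 10, without background subtraction and in the deposited table, where Spn, named after its value was seen, was also called lower. Among 14 intracellular partners above background, 0 were called, the median was 0.14, and the largest ratio was that of Trim16, which acts with galectin-3 at damaged lysosomes, at 0.89 with its 3 probes between 0.82 and 1.02. Anxa7 followed at 0.59 with a second probe at -0.01.

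Since Lgals9 and Lgals3bp are known as interferon-inducible, their values are set beside a list of 24 interferon-stimulated genes, chosen with interferon genes already known to be lower here. Of the 22 above background, 0 were called higher and 6 lower, where 2.95% of all genes above background were called higher and 2.61% lower. Their median log2 ratio was -0.65, and 20 had a negative ratio. The called genes were Usp18 (-2.16), Ifit1 (-2.07), Bst2 (-1.69), Stat2 (-1.62), Oasl2 (-1.32) and Ifit3 (-1.02), among them the interferon signal transducer Stat2 and its feedback protease Usp18. The exceptions were Ifit2 at 0.68 and Tap1 at 0.17, named after their values were seen. Lgals3bp at -0.80 lay on the side of most of the list, and Lgals9 at 1.41 lay above all 22 of its genes. The part of interferon in the ratios of Lgals3bp and Lgals9 was not tested. The repeat found upstream of Lgals9 was present in 10 of the 22 promoters with an entry for this list (45.5%), against 3.44% of all promoters. Those 22 promoters belong to 19 genes of the list, and are not the 22 genes above background. Of the 6 called genes, 3 moved by over 2-fold with the processing: in the deposited table Ifit1 was at -3.97, Usp18 at -3.24 and Oasl2 at -3.04. Genes that were not called also moved by over 2-fold. Among them, named after their values were seen, were Isg15 (-0.89, and -2.30 in that table) and Mx2 (-0.55 and -1.65). The list median in that table was -1.17. The number called lower was 3 with median centring and 13 in the deposited table, where 5.93% of all genes were called higher and 5.45% lower, and none of the list was called higher in either.

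**Figure D5:**
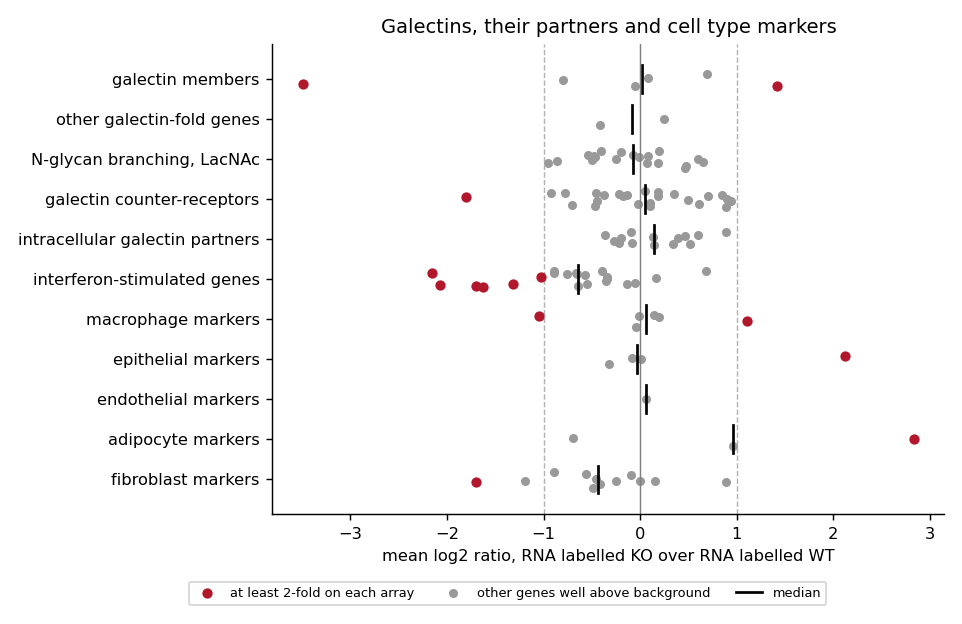
Mean log2 ratio (horizontal axis) of each gene well above background in the galectin family and in the lists set beside it (rows, points spread vertically for legibility), red where at least 2-fold on each array, with the median as a black bar. The interferon-stimulated genes lie mostly below 0 with a median of -0.65, while the galectins reach from -3.49 to 1.41 around a median of 0.02.

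Markers of cell types that express galectins were read on the same arrays. Over all genes above background, 2.95% were called higher and 2.61% lower, and nothing is read from the counts of called markers. Macrophages are rich in galectin-3. Of 14 macrophage markers 6 were above background, Itgam was so on 1 array in each RNA, and Adgre1, Ptprc, Tyrobp, C1qa, Cd53, Laptm5 and Msr1 were not so on either array in either RNA. Their summed signal was 2410 and 2368 units in the RNA labelled KO and 1896 and 1883 in the RNA labelled WT, and without Lyz2, listed as Lyzs, 1119 and 1090 against 1296 and 1288, so the direction of the sum rested on that gene. Cd14 was called lower (-1.05), and Lyz2 higher (1.10, second probe 0.13), though its probe may also read the near copy Lyz1, and neither was called with median centring. The part of macrophages in the Lgals3 result was not tested. Epithelial markers were above background for 4 of 10, with Krt19 called higher (2.12, and 4.09 in the deposited table) and Cdh1 and Epcam not above background. Cldn7, named after its value was seen, went the other way and was called lower in the deposited table (-2.26 and -1.85). In the main setting Cldn7 was not called. It stood above background in the WT RNA alone, so its value of -0.32 is only a bound. The sum of all 10 was 1016 and 970 units against 753 and 754, and without Krt19 629 and 657 against 662 and 683. Most genes in the sum without Krt19 were not above background, so nothing is read from its direction. The part of such cells in the Lgals4 ratio was not tested. Of 8 endothelial markers 1 was above background and 0 were called. Adipocyte markers were above background for 3 of 9, and Pparg was called higher (2.83). Fabp4 was at least 1.95-fold higher (4.05 in the deposited log2 table) at the brightest of its 3 probes, which ran from 0.03 to 0.96. Cebpa was at -0.70 (-1.63 in that table) with a second probe at -0.07. Adipoq, like Lgals12, was not above background.

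The fibroblast label was checked on 13 markers, of which all 12 with a value on both arrays were above background, Vim on 1 array only in the RNA labelled KO, with a ratio of -0.89 (-2.40 in the deposited table, where it was called). Their median log2 ratio was -0.43, with Postn, a matrix protein of fibroblasts, called lower (-1.69), though not with median centring. Fbn1 was at -1.19, with -0.72 and -1.66 on the 2 arrays, and Fn1, a matrix ligand of galectins, at 0.89. The summed signal of the list was 150236 and 138079 units in the RNA labelled KO and 216568 and 219921 in the RNA labelled WT, and without Postn 127352 and 118454 against 144858 and 154288. By count, 9 of the 12 had a negative ratio, 3 a positive one, and 1 was called. Of all genes above background, 2.95% were called higher and 2.61% lower. The mean log2 ratio of Lgals3, chosen with its value known, was -3.49, and a list median of -0.43 sets no limit for a single gene. The part of these markers in the results on Lgals3 and Lgals3bp was not tested.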

How the data were processed

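Per the file headers, both arrays were read with Agilent Feature Extraction 10.5.1.1, and the authors deposited each spot's mean signal and median local background as an intensity without absolute unit. Beside these, the files the authors deposited give a log10 ratio of Cy5 over Cy3 by Feature Extraction. Their deposited value table holds 1 log2 ratio per probe and array, which correlated with KO over WT from the processed signals at r of 0.9999 and 0.9996 over probes, so scale and direction are settled. Its column medians were -0.0177 and 0.0367, and it was not centred further. Probe positions are the files' own, on mm8 (NCBI36). Exons and untranslated regions were not analysed here.

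Background was corrected by normexp with an offset of 50, which pulls dim ratios towards 0, in limma 3.58.1 (R 4.3.3), and intensities were normalised by loess within each array. Control spots (1639 of 45018) and spots marked as outliers (390 and 378) were left out, array 2 was turned, and both arrays were averaged as 1 replicate. The brightest probe stood for a gene. A probe not well above background in 1 RNA has only a bound, "at least N-fold", from channel values after loess and Aquantile and against the lowest signal well above background. All members with every probe, called genes of each list or else its 3 largest ratios, and Lats2 are named, with exceptions marked, and 1 gene that meets this rule is not reported here. The members and lists were chosen with earlier results of these data known. All 9 members matched a reference table by accession. The study's methods used a 2-fold threshold and p under 0.05 by t-test. Alternatives were an offset of 10, no background subtraction, median centring, Feature Extraction's ratio, the deposited table, marked spots kept, each array alone, no detection filter, limma's test and the methods' t-test, and, added later, same-dye comparisons.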

Additional observations from a re-analysis of the deposited data

How the results depend on the processing

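Lgals3 and Lgals9 kept their direction in every recomputation run. Lgals3 was at -3.66 by Feature Extraction's ratio and in the deposited table and at -3.63 in the same-dye Cy3 comparison, and each array alone gave -3.59 to -3.40. With median centring Lgals3 was at -2.54 on array 1 and -4.39 on array 2, around a mean of -3.46. Lgals9 was at 1.60 with an offset of 10, 1.70 by Feature Extraction's ratio and in the deposited table, and 1.63 and 1.70 in the same-dye comparisons, and each array alone gave 1.39 to 1.43. The median over all 8 members with a value on both arrays, background ones included, was -0.022 in the main setting and -0.229 by Feature Extraction's ratio. On each array alone it was -0.0186 to -0.0182. The deposited table also held a value for Lgals1 on both arrays, and its median over all 9 members was -0.235. With median centring, 0 members were called higher and 1 lower, and of all probes 321 were called higher and 169 lower (65.5% higher), against 599 and 503 in the main setting (54.4%), 1280 and 1220 by Feature Extraction's ratio, and 1284 and 1224 in the deposited table. A single array gave 670 to 715 probes higher and 584 to 666 lower. The methods' t-test on the 2 arrays compares the RNAs hybridised and not the genotypes, and since the members were chosen on these ratios its calls are no evidence about them. It called 1 member higher and 1 lower at its threshold (524 and 443 probes) and 0 and 0 after Benjamini-Hochberg adjustment (0 and 0 probes), where limma called 1 and 1 (662 and 598 probes). Of 85 recomputed member ratios, 62 moved by less than the SD between arrays and 23 by more. The sign turned in 8: Lgals1 was at -0.235 in the deposited table, -0.213 with marked spots kept and -0.341 in the same-dye Cy3 comparison, and the rest were Lgals7 and Lgals12, both at background. The causes were not tested. No paired analysis was possible because the arrays hold a lone pair of RNAs, counted as 1 replicate.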
